A study of Mus musculus with 18 samples.

Results

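The genes described here are 10 genes of neutrophil granules and alarmins, namely Ngp, Camp, Ltf, Lcn2, S100a8, S100a9, Elane, Mpo, Prtn3 and Fgr. They were chosen by name, and all 10 were found among the 46983 gene names in the 2 count matrices. RNA came from male C57BL/6J mice, an inbred strain, and libraries were labelled as bone marrow (titles mBMSC) or adipose (titles mAT-MSC VAT). Every library description carries HFD, also those of the control arm, and the series title speaks of glutamine in obese mice. Each tissue had 4 libraries of the HFD arm, with genotype label Ctrl and treatment label no, and 5 of the HFD + Gln arm, with Glutamine in both fields, 18 libraries in all. Neither an age, nor the dose and route of glutamine, nor how the cells were isolated is given in the labels. Each library name joins a pair of numbers, such as 23+28, and what they stand for is not said, and because nothing says that they are separate animals or cultures, p-values speak only of the scatter among these libraries, part of which may be technical. 1 bone marrow column has a number pair found in no sample title. It was used as a glutamine-arm library because of its name, and is called the unnumbered library.

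Neutrophils are short-lived phagocytes that are made in bone marrow and carry their weapons ready-made in granules. Azurophil granules are filled first, at the promyelocyte stage, with myeloperoxidase (Mpo) and the serine proteases neutrophil elastase (Elane) and proteinase 3 (Prtn3). Specific granules follow, with lactoferrin (Ltf), the iron-siderophore binder lipocalin 2 (Lcn2), the antimicrobial cathelicidin (Camp) and neutrophilic granule protein (Ngp). S100a8 and S100a9 encode the 2 chains of calprotectin, a calcium-binding protein of the cytosol that acts as an alarmin when it is released, and Fgr encodes a Src family kinase that signals in myeloid cells. Granule transcripts are known to be abundant in marrow precursors and scarce in mature neutrophils, and C/EBP factors and PU.1 are known regulators of granule genes. Monocytes and macrophages also transcribe several of these genes, and adipocytes and stromal cells can make Lcn2.

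The members lie in several small neighbourhoods of the mouse genome (GRCm38, GENCODE M21). Camp (109847379 to 109849617), Ngp (110419747 to 110423012) and Ltf (111019271 to 111042767) lie on chromosome 9, with 570129 bases between Camp and Ngp and 596258 between Ngp and Ltf. S100a8 (90668978 to 90670035) and S100a9 (90692632 to 90695721) lie 22596 bases apart on chromosome 3, on opposite strands. Prtn3 (79874476 to 79883174) and Elane (79886247 to 79888215) lie 3072 bases apart on chromosome 10. Lcn2 lies on chromosome 2 (32384633 to 32388252), Mpo on chromosome 11 (87793581 to 87804413) and Fgr on chromosome 4 (132974095 to 133001910). All 10 are annotated as protein coding.

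All 10 members matched the RefSeq promoter table (GRCm38.p6), and the 250 bases before the RefSeq start were searched on both strands for 3 motifs. The letters TTGCNNAA, a C/EBP site, were present for 4 of 10 members (Ngp, Ltf, Lcn2 and S100a9) and in 9.56% of 32851 promoters. The letters GAGGAA, the core of a PU.1 site, were present for 6 of 10 members and in 23.3% of promoters, and TATAAA for 1 member, S100a8, and in 12.4%. A match describes letters, not a bound site. At S100a8 the TATAAA match directly follows a GAGGAA match read on the other strand, and they share no base. The stretches below show the 6 members for which most of these 250 bases lie before the GENCODE gene. They are 5 members much lower in adipose and Fgr, which departed from that pattern. Lcn2, Mpo, Prtn3 and Camp, whose 250 bases hold none of the 3 motifs in the case of Camp, are not shown. Each is printed 5′ to 3′ on the gene's strand and ends where the GENCODE gene begins, and capitals mark the letters of a C/EBP or PU.1 match.
Ngp, chr9:110419558-110419746, plus strand: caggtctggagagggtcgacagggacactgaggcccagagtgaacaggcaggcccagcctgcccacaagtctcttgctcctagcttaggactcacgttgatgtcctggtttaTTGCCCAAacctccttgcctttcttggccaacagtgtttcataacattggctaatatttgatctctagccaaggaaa
Ltf, chr9:111019042-111019270, plus strand: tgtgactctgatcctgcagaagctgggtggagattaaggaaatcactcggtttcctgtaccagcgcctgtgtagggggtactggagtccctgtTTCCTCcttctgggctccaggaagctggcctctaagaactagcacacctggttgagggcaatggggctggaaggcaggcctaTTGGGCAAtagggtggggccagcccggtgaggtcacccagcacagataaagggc
S100a8, chr3:90668821-90668977, plus strand: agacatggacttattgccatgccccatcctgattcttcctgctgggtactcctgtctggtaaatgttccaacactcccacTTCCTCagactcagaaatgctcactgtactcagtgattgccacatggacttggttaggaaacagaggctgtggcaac
S100a9, chr3:90695722-90695971, minus strand: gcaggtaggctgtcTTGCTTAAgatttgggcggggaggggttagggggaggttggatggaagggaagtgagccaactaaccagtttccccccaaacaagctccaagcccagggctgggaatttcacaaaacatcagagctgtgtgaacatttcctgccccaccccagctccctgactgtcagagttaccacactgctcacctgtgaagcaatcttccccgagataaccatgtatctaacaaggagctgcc
Elane, chr10:79886062-79886246, plus strand: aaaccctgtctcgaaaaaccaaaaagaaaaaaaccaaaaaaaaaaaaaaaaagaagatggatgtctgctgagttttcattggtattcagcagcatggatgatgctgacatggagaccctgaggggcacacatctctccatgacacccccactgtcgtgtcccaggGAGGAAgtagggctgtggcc
Fgr, chr4:132973845-132974094, plus strand: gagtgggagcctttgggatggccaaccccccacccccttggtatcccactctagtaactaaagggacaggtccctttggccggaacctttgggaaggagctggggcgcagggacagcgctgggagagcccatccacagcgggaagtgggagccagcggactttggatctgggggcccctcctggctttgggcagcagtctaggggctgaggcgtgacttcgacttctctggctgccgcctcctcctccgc
The Ngp, Ltf and S100a9 stretches each show a C/EBP match, and Ltf, S100a8 and Elane a GAGGAA match read on either strand. In Ngp a second C/EBP match, and in S100a8 a second GAGGAA match and the TATAAA match, lie in the bases left off here because GENCODE counts them to the gene. The Fgr stretch holds none of the 3 motifs.

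The bone marrow libraries held 13970788 to 37984603 counts and the adipose libraries 35871168 to 59529238. A count of 100 was reached by 1755 to 7323 genes per bone marrow library and by 11361 to 14469 per adipose library. The thinnest were the bone marrow HFD library 23+28 (1755 genes) and the unnumbered library (1831 genes). Markers of bone and marrow stroma summed to 66548 to 304204 CPM (a gene's count scaled by the library total) over the bone marrow libraries and 9188 to 17143 CPM over the adipose libraries. Adipose progenitor markers summed to 1562 to 4571 CPM in bone marrow and 12483 to 19519 CPM in adipose. Of 8 neutrophil markers, Ly6g had no count in any library, and 7 reached 100 counts in at least 1 library of the glutamine arm of bone marrow. Their sum ran from 1.39 to 450 CPM in HFD bone marrow, 2.22 to 1245 CPM in glutamine bone marrow, 4.52 to 36.4 CPM in HFD adipose and 3.51 to 23.9 CPM in glutamine adipose.

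The granule and alarmin genes were far more abundant in bone marrow than in adipose, while Fgr stood at -6.28 on the log2 scale in the HFD arm and at 0.60 in the glutamine arm. Together the 10 genes took 0.297% to 5.57% of the counts of a bone marrow library and 0.00524% to 0.0296% of those of an adipose library. All 10 were called lower in adipose (edgeR quasi-likelihood test on 18 libraries, Benjamini-Hochberg adjusted p under 0.05), where 11.2% of the 15203 genes tested were called lower. The median log2 difference of the members, adipose over bone marrow, was -10.30, beside 1.43 for all genes tested. That background shifts with the scaling: 6150 genes were called higher and 1708 lower with TMM factors, 2465 and 6524 with relative log expression factors, and the median of all genes was then -1.94 (-0.89 with upper-quartile factors). Relative to the median of all genes the members stood at -11.72, -12.34 and -13.15 under these 3 scalings. In bulk samples fewer cells of a type and less RNA per cell cannot be told apart, and tissue and count matrix go together here.

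**Figure D1:**
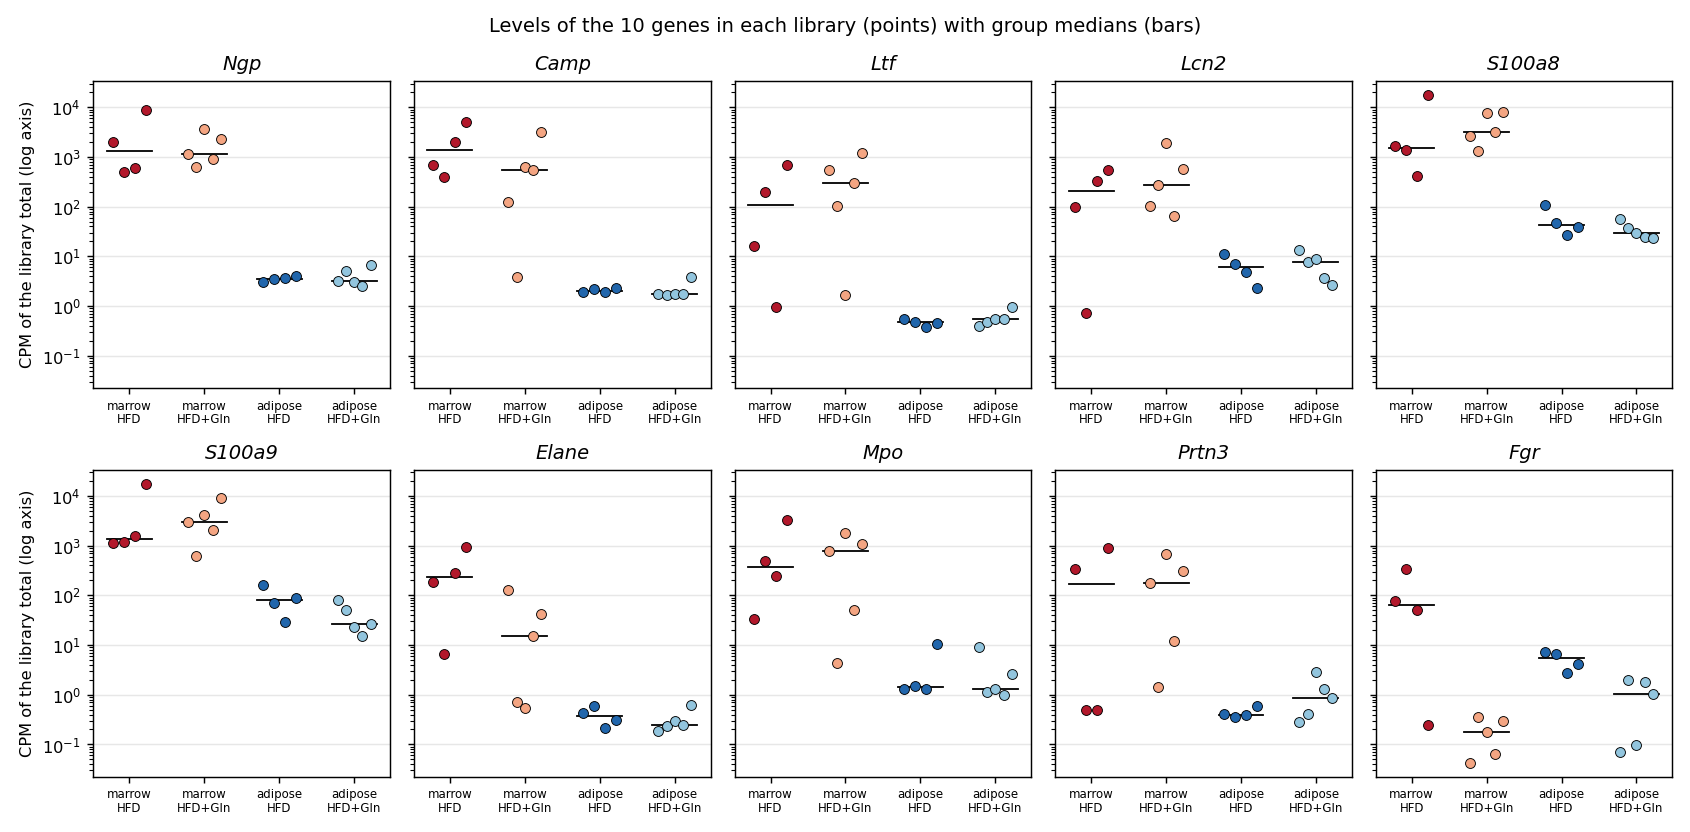
Level of each of the 10 genes in CPM of the library total (log axis) in the 4 groups, bone marrow and adipose with HFD or HFD + Gln, with 1 point per library and a bar at the group median. For Ngp, Camp, Ltf, S100a8 and S100a9 every bone marrow point lies above every adipose point, while Fgr lies at 0.358 CPM or less in all 5 glutamine bone marrow libraries. The lowest bone marrow and highest adipose points nearly meet for Camp (3.94 and 3.90 CPM) and Ltf (0.964 and 0.953 CPM).

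Of the specific granule genes, Ngp was at 2035, 499, 598 and 8841 CPM in the HFD bone marrow libraries 1+3, 5+11, 14+17 and 23+28. In the glutamine arm it was at 1156, 629, 3633, 895 and 2322 CPM in libraries 4+6, 10+12, unnumbered, 18+20 and 25+27. Adipose levels were 3.07, 3.43, 3.70 and 3.99 CPM with HFD and 3.15, 5.09, 3.12, 2.54 and 6.86 CPM with glutamine (library 13+15 in the place of the unnumbered one). The tissues did not overlap, and within adipose the levels differed by no more than 2.70-fold. The log2 difference for Ngp was -11.36 ± 0.886 (SE, adjusted p = 2.44e-08, n = 9 per tissue, edgeR). This fitted difference uses TMM factors and is larger than the library-total CPM give, which averaged 2290 in bone marrow and 3.88 in adipose. The fitted differences below use TMM factors too, so they are not ratios of the CPM printed beside them.

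Camp, the cathelicidin gene, was at 706, 397, 2037 and 5178 CPM in the HFD bone marrow libraries and at 124, 3.94, 622, 545 and 3219 CPM in the glutamine libraries, in the same order. In adipose it ran from 1.92 to 2.33 CPM with HFD and from 1.65 to 3.90 CPM with glutamine. The tissues came close only at bone marrow library 10+12 (3.94 CPM). The difference was -11.39 ± 1.16 (adjusted p = 1.78e-06, edgeR). Ltf, the lactoferrin gene, was at 16.1, 197, 0.964 and 684 CPM in HFD bone marrow and 539, 105, 1.66, 296 and 1213 CPM with glutamine, against 0.387 to 0.953 CPM in adipose. Its levels in bone marrow libraries 14+17 and unnumbered thus lay just above the adipose range, and the difference was -11.25 ± 1.46 (adjusted p = 4.12e-06, edgeR).

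Lcn2, whose product withholds iron from bacteria, had the smallest difference of the 4 specific granule genes, -7.99 ± 1.20 (adjusted p = 1.36e-05, edgeR). It was at 96.6, 0.719, 322 and 558 CPM in HFD bone marrow and 103, 267, 1943, 63.9 and 567 CPM with glutamine. Adipose levels were 11.1, 7.00, 4.96 and 2.36 CPM with HFD and 13.6, 7.81, 8.89, 3.68 and 2.65 CPM with glutamine. Bone marrow library 5+11 lay below all adipose libraries, so the tissues overlapped for Lcn2.

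The azurophil genes were also lower in adipose, and varied widely between bone marrow libraries. Elane was at 186, 6.59, 285 and 964 CPM in HFD bone marrow and at 128, 0.716, 0.533, 15.1 and 42.0 CPM with glutamine. In adipose it ran from 0.191 to 0.635 CPM, and the difference was -10.41 ± 1.43 (adjusted p = 5.68e-06, edgeR). The unnumbered bone marrow library, at 0.533 CPM, lay within the adipose range.

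Mpo, whose enzyme makes hypochlorous acid, was at 33.1, 482, 251 and 3368 CPM in HFD bone marrow and 785, 4.44, 1805, 50.4 and 1064 CPM with glutamine. Adipose levels lay between 0.998 and 2.58 CPM in 7 libraries and were 10.5 CPM in HFD 23+28 and 8.94 CPM in glutamine 4+6. Those adipose libraries lay above bone marrow library 10+12, and the difference was -10.19 ± 1.43 (adjusted p = 6.74e-06, edgeR). Prtn3, the neighbour of Elane, was at 335, 0.489, 0.500 and 921 CPM in HFD bone marrow and 180, 1.43, 676, 12.1 and 304 CPM with glutamine. It ran from 0.286 to 2.81 CPM in adipose and overlapped between tissues, with a difference of -10.79 ± 1.71 (adjusted p = 2.56e-05, edgeR). In bone marrow library 14+17 Elane stood at 285 CPM and Prtn3 at 0.500 CPM, although both belong to the same granule.

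The alarmin genes were the members with the highest adipose levels. S100a8 was at 1677, 1396, 421 and 17468 CPM in HFD bone marrow and 2599, 1329, 7739, 3202 and 7950 CPM with glutamine. In adipose it was at 106, 46.8, 26.6 and 38.6 CPM with HFD and 55.3, 37.8, 29.6, 24.5 and 23.3 CPM with glutamine. The tissues did not overlap, and the difference was -8.95 ± 0.865 (adjusted p = 7.90e-07, edgeR).

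S100a9, the partner chain, was at 1116, 1207, 1570 and 17730 CPM in HFD bone marrow and 3043, 626, 4100, 2074 and 9165 CPM with glutamine. Its adipose levels were 163, 69.1, 29.1 and 90.1 CPM with HFD and 81.7, 51.3, 23.4, 15.1 and 26.9 CPM with glutamine. The difference was -8.35 ± 0.881 (adjusted p = 2.68e-06, edgeR), again without overlap. Both chains were highest in the same library of each bone marrow arm, HFD 23+28 and glutamine 25+27, and in adipose in HFD 1+3 and glutamine 4+6. The ratio of S100a8 to S100a9 counts ran from 0.268 to 2.12 over bone marrow libraries and from 0.429 to 1.62 over adipose libraries.

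Fgr, the kinase gene, did not share the tissue pattern of the other 9. In HFD bone marrow it was at 77.5, 343, 49.8 and 0.248 CPM, and in the 5 glutamine bone marrow libraries at 0.0430, 0.358, 0.178, 0.0641 and 0.293 CPM, from 1 to 9 counts each. Adipose levels were 7.22, 6.72, 2.77 and 4.16 CPM with HFD and 0.0716, 2.02, 0.0975, 1.79 and 1.06 CPM with glutamine. Its level was thus high in 3 HFD bone marrow libraries, intermediate in 7 adipose libraries and near 0 in 6 bone marrow and 2 adipose libraries. The difference between tissues over both arms was -2.84 ± 1.03 (adjusted p = 0.0264, edgeR). It was -6.28 ± 1.78 (adjusted p = 0.0102) in the HFD arm and 0.60 ± 1.31 (adjusted p = 0.726) in the glutamine arm. The call was lost with limma-voom (-1.97, adjusted p = 0.439), without bone marrow HFD library 5+11 (adjusted p = 0.0714), and without adipose HFD library 14+17 or 23+28 (adjusted p = 0.0608 and 0.0542). It was also lost in a fit with a block for shared library numbers, whose value is given in the section on processing. With traces, the small counts described below, set to 0 the difference stood at 2.22 (adjusted p = 0.146, edgeR).

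**Figure D2:**
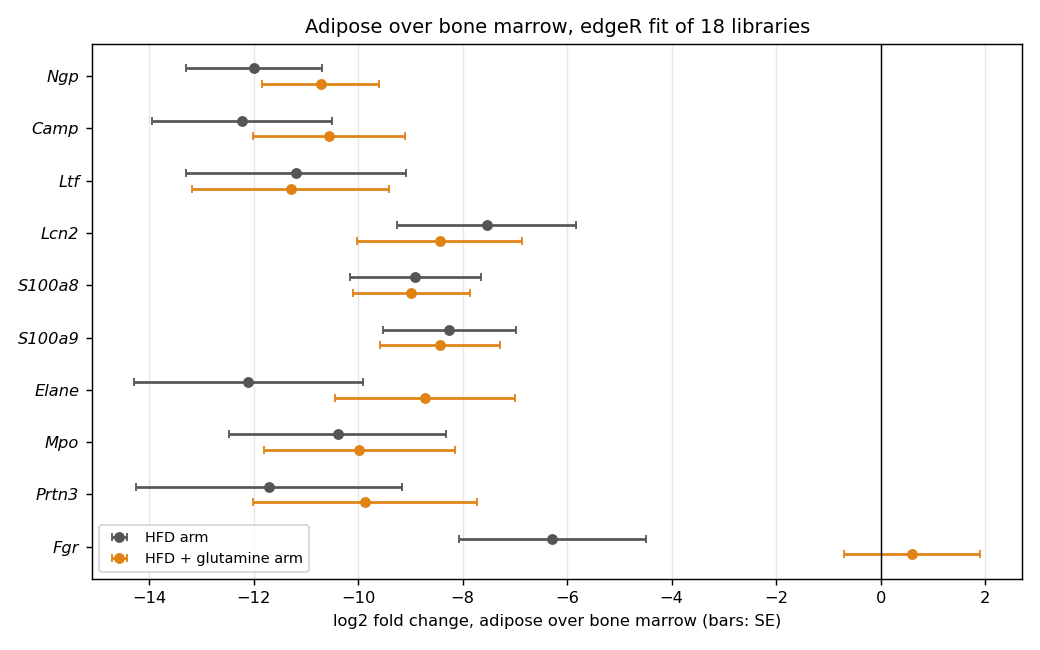
Log2 fold change of each gene, adipose over bone marrow, in the HFD arm (grey) and in the HFD + Gln arm (orange), with bars of 1 SE from the edgeR fit of 18 libraries. For 9 genes both arms lie at -7.54 or lower, and Fgr lies at -6.28 in the HFD arm and 0.60 in the glutamine arm.

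In terms of separation, 5 of 10 members (Ngp, Camp, Ltf, S100a8 and S100a9) had no adipose library as high as any bone marrow library in CPM, as did 32 of the 15203 genes tested (0.21%). For Camp and Ltf this separation rests on traces in both tissues. Camp was at 3.94 CPM in bone marrow 10+12 and 3.90 CPM in adipose 25+27. Ltf was at 0.964 CPM in bone marrow 14+17 and 0.953 CPM in adipose 25+27. With TMM-scaled CPM Elane joined the 5, also with traces as its lowest bone marrow values. In every alternative run for the tissue comparison, 29 per gene, each of the 9 members other than Fgr kept its direction and its call, with Ngp between -18.69 and -9.76 and S100a9 between -12.29 and -5.36. In HFD bone marrow the order of median levels was S100a8 at 1537 CPM, S100a9 at 1389, Camp at 1371 and Ngp at 1317, and their ranges overlapped. In HFD adipose it was S100a9 at 79.6 CPM, S100a8 at 42.7, Lcn2 at 5.98 and Fgr at 5.44, and S100a8 and Lcn2 did not overlap (lowest 26.6, highest 11.1 CPM). The libraries were made from transcript ends, so CPM was compared between genes without a length correction.

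In bone marrow the counts of these genes were of 2 kinds, high ones and traces. A trace is here a count of at most 0.1% of the gene's summed count in the other 17 libraries, a limit chosen after the values were seen. In bone marrow 16 of 90 values were traces, of 1 to 62 counts and 0.00571% to 0.0514%, and the other 74 values started at 229 counts and 0.582%. No bone marrow value of a member lay between. Library 10+12 held 5 of these traces (Camp, Elane, Mpo, Prtn3 and Fgr), and HFD library 1+3 held none.

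In adipose 53 of 90 values were traces, and Ngp, Camp, Ltf and Elane were traces in all 9 libraries. Mpo was above the limit in HFD 23+28 and glutamine 4+6, with 476 and 375 counts. Lcn2 and S100a8 were above the limit in all 9 adipose libraries and S100a9 in 8. Adipose values left no gap at the limit: S100a9 in glutamine library 18+20 counts as a trace with 728 counts (0.0723%), and in 13+15 it does not, with 1202 counts (0.119%). All libraries were sequenced in 1 lane, per the labels' protocols, and whether reads assigned to the wrong library make up the traces was not tested. Over 4427 genes with at least 10000 summed bone marrow counts, 42.5% of the bone marrow values and 2.76% of the adipose values lay between 0.01% and 0.06% of the other libraries. A bone marrow value between 0.1% and 0.5% was less frequent over these genes, at 3.61%.

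**Figure D3:**
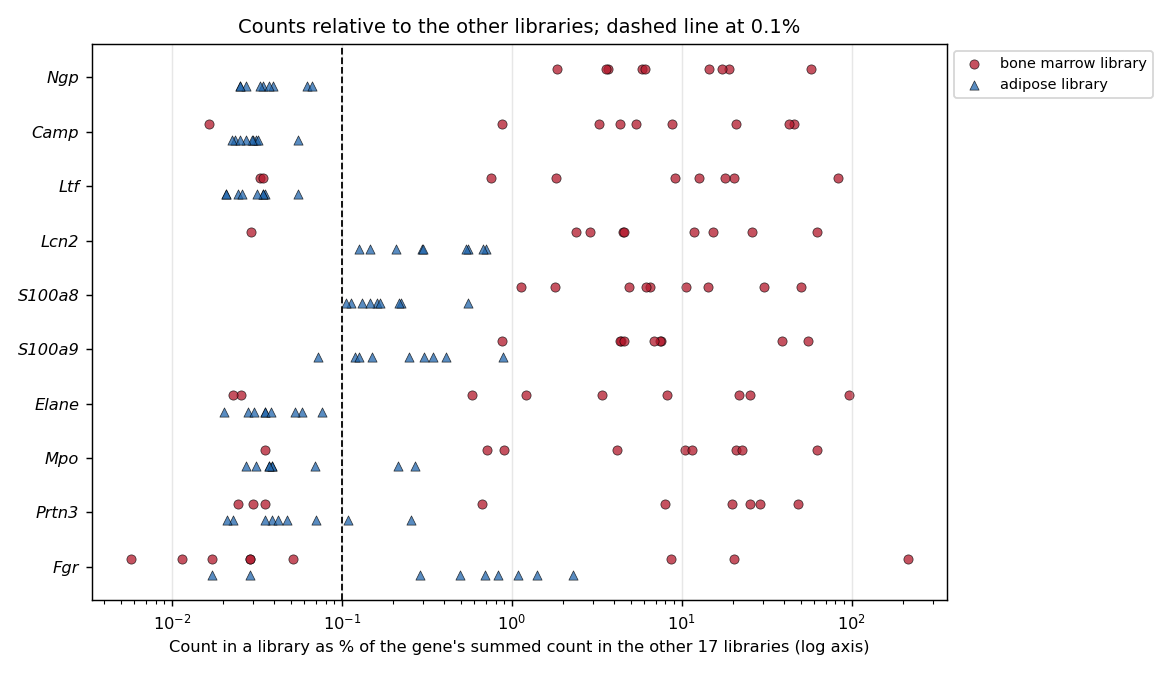
Count of each gene in each library as a percentage of its summed count in the other 17 libraries (log axis), for bone marrow (red circles) and adipose (blue triangles), with a dashed line at 0.1%. Bone marrow points leave a gap from 0.0514% to 0.582%, and all 9 adipose points of Ngp, Camp, Ltf and Elane lie left of the line.

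Bone marrow library 23+28 of the HFD arm carried the most of these transcripts. The 10 genes took 5.57% of its counts, against 2.58% in glutamine 25+27, 2.05% in the unnumbered library and 0.297% to 0.866% in the other 6. S100a8 and S100a9 alone made up 3.52% of its counts. Only 1755 of its genes reached 100 counts, fewer than in any other library, and its 8 neutrophil markers summed to 1.39 CPM, the lowest of the 9 bone marrow libraries. Its macrophage and monocyte markers summed to 2256 CPM, the highest of the 9. Of these 10 markers only 4 reached 100 counts in any HFD bone marrow library. Adgre1, Cd68, C1qc, Mrc1 and Ccr2 stayed under 10 counts in all of them. The sum includes Lyz2, also an azurophil granule gene, which reached 1586 CPM in this arm. HFD library 1+3, with 349 CPM of neutrophil markers, had 0.628% of its counts in the members. What the depth of detected genes and these cell types contribute to the members' levels was not tested.

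**Figure D4:**
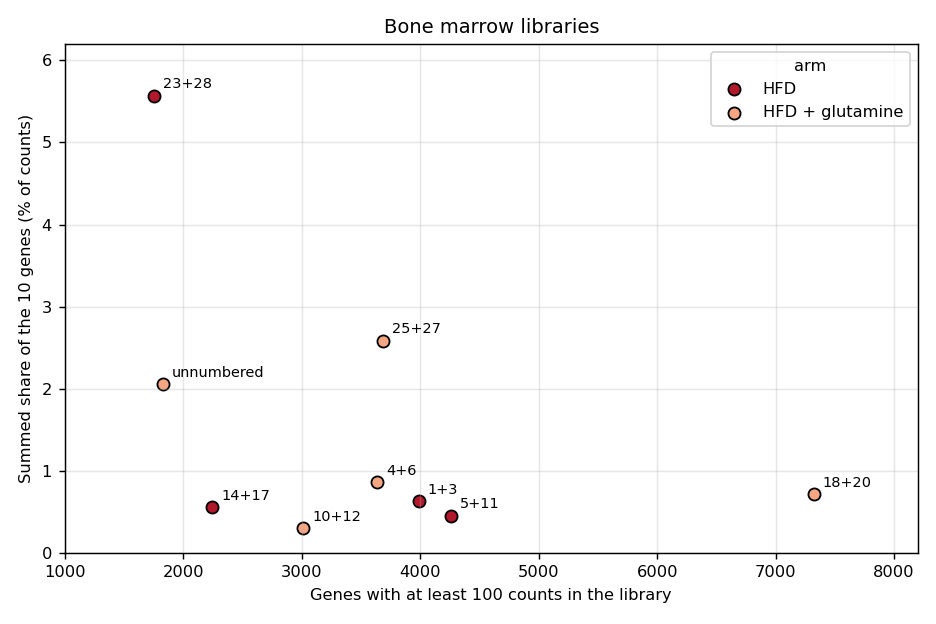
Share of counts taken by the 10 genes (percent, vertical) against the number of genes with at least 100 counts (horizontal) in each of the 9 bone marrow libraries, coloured by arm. HFD 23+28 lies alone at 5.57% and 1755 genes, and 6 libraries lie under 1%.

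Over the 9 bone marrow libraries the members' TMM-scaled log2 CPM varied together in part. All genes of a library share its TMM factor, which ran from 0.460 in HFD 23+28 to 1.87 in glutamine 18+20. Pearson's r with S100a9 was 0.89 for S100a8, 0.89 for Ngp, 0.88 for Mpo and 0.77 for Camp. It was 0.51 for Elane, 0.29 for Ltf and -0.28 for Fgr, so these values did not follow the granule class. Among 5197 other genes at an average log2 CPM of 4 or more, those most like S100a9 in bone marrow were Rpl23a (r = 0.93), Rpl8 (0.90), Pbrm1 (0.90), Lyz2 (0.88) and Ptprj (0.88). Rpl23a and Rpl8 encode ribosomal proteins and have pseudogene copies that the counting could mix, Pbrm1 a chromatin remodeller subunit, Lyz2 the lysozyme of myeloid cells and Ptprj a receptor tyrosine phosphatase.

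In adipose the closest pair was S100a8 and S100a9 (r = 0.91, 9 libraries). The other genes most like S100a9 there, among 7903, were Ptgr2 (r = 0.92), Picalm (0.91), Proser1 (0.91), Gfm1 (0.91) and Btf3 (0.91). Camp had r = 0.78 with Ltf and 0.75 with Elane, pairs whose adipose values are all traces. Fgr had r between -0.40 and 0.42 with every other member in adipose. These correlations describe 9 libraries, in each of which all genes share depth and composition, and no p is given.

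With glutamine no member was called in bone marrow. The fold changes were negative for 9 of 10 members, from -0.39 for Ltf to -9.30 for Fgr, and 0.77 for Lcn2. Of 6041 genes tested 8 were called, 0.132% (edgeR), all lower, and 1127 had an unadjusted p under 0.05. The median log2 fold change was -1.39 over the members and -0.22 over all genes. With relative log expression factors these medians were -1.72 and -0.32, and with upper-quartile factors -2.67 and -0.10. Among the members, 4 had an unadjusted p under 0.05, namely Camp, S100a9, Elane and Fgr. Of these, Fgr passed the count filter only because of its high HFD libraries.

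Camp stood at -2.32 ± 1.05 (adjusted p = 0.205), S100a9 at -1.61 ± 0.698 (adjusted p = 0.198) and Elane at -4.63 ± 2.01 (adjusted p = 0.198, edgeR). Ngp stood at -1.54 ± 0.878 (adjusted p = 0.346) and S100a8 at -1.13 ± 0.679 (adjusted p = 0.381, edgeR). For all of these the arms overlapped, and for the alarmins the glutamine arm had the higher median CPM, 3202 against 1537 for S100a8 and 3043 against 1389 for S100a9. For 6 members the sign of the fitted change rested on HFD library 23+28, which also had the smallest TMM factor, 0.460. Without it Camp stayed negative at -0.86, Elane at -2.90 and Fgr at -9.77, while S100a8 stood at 2.05, S100a9 at 1.19, Ngp at 0.84, Mpo at 1.50, Prtn3 at 1.66 and Ltf at 2.37, and no member passed (adjusted p between 0.260 and 0.810, edgeR). Lcn2 turned to -1.38 without the unnumbered library.

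Fgr and Elane had the largest differences between the arms in bone marrow. Elane was at 186 CPM or more in 3 of 4 HFD libraries and at 128 CPM or less in all 5 glutamine libraries, but HFD library 5+11, at 6.59 CPM, lay below 3 of them. Fgr stood at -9.30 ± 3.21 (adjusted p = 0.197, edgeR). It entered this test through HFD libraries 1+3, 5+11 and 14+17, where it was high, and a trace in glutamine library 10+12. Its glutamine libraries were all traces, and HFD library 23+28, at 0.248 CPM, lay among them, so the arms overlapped in CPM, while with TMM-scaled CPM they did not. No member had separate arms in CPM, and 0.248% of the 6041 genes tested were separately lower with glutamine. In the fit of all 18 libraries Fgr (-9.56, adjusted p = 0.0117) and Elane (-3.93, adjusted p = 0.0445) passed, and in DESeq2 as well (-8.81, adjusted p = 1.36e-06, and -5.57, adjusted p = 0.00507). That joint fit called 3926 of 15203 genes tested and DESeq2 722 of 6041, with 5.07% of these called lower. The 2 of 10 members called there thus stand beside many more calls among all genes.

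**Figure D5:**
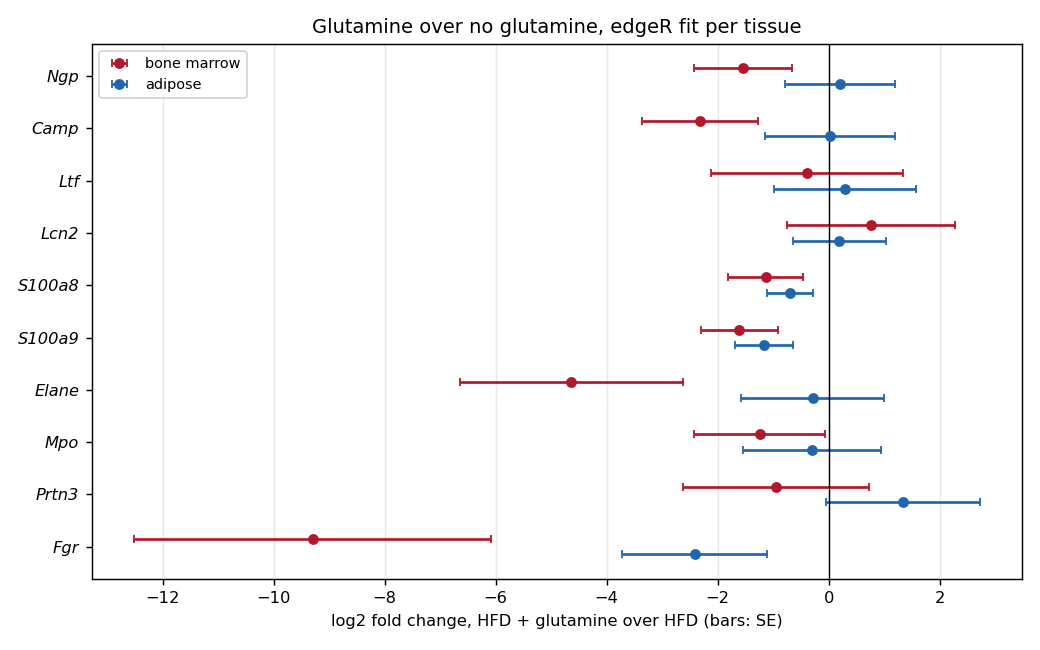
Log2 fold change of each gene, HFD + Gln over HFD, in bone marrow (red) and adipose (blue), with bars of 1 SE from the edgeR fit of each tissue's 9 libraries. None passes the threshold, and Fgr has the most negative value in each tissue, -9.30 and -2.42.

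In adipose no member and no other gene was called with glutamine (0% of 15114 genes, edgeR), while 624 genes, among them 1 member, had an unadjusted p under 0.05 and DESeq2 called 31 genes, none a member. The median log2 fold change was -0.13 over the members and -0.02 over all genes. S100a9 stood at -1.16 ± 0.514 (unadjusted p = 0.0404 in edgeR's test, adjusted p = 1.00) and S100a8 at -0.70 ± 0.410 (adjusted p = 1.00, edgeR). The mean level of S100a9 was 87.9 ± 56.3 CPM (SD, n = 4) in the HFD arm, against 39.7 ± 27.1 CPM (SD, n = 5) in the glutamine arm, and the arms overlapped between 29.1 and 81.7 CPM. The specific granule genes stood between 0.03 (Camp) and 0.30 (Ltf), with SE from 0.834 to 1.28. Elane and Mpo both stood at -0.29, with SE of 1.29 and 1.25, and Prtn3 at 1.34 ± 1.39.

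Fgr was the member whose adipose arms did not overlap, as for 92 of the 15114 genes tested (0.609%) in that direction. Its lowest HFD library was at 2.77 CPM and its highest glutamine library at 2.02 CPM. It averaged 5.22 ± 2.11 CPM (SD, n = 4) in the HFD arm, against 1.01 ± 0.913 CPM (SD, n = 5) in the glutamine arm, and the log2 fold change was -2.42 ± 1.31 (adjusted p = 1.00, edgeR). Glutamine libraries 4+6 and 13+15 held 3 and 5 counts, both traces, and the other 3 held 50 to 120.

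Macrophage marker sums in adipose overlapped between the arms. The 10 macrophage and monocyte markers, all detected in both arms, summed to 609, 1142, 744 and 1761 CPM in HFD libraries 1+3, 5+11, 14+17 and 23+28. In the glutamine libraries 4+6, 10+12, 13+15, 18+20 and 25+27 they summed to 763, 631, 294, 375 and 426 CPM. HFD library 1+3, the highest for S100a8, S100a9 and Fgr, had the lowest macrophage sum of its arm and the highest neutrophil sum, 36.4 CPM. Neutrophil markers were at 4.52, 9.04 and 26.1 CPM in the other HFD libraries and 3.51, 14.0, 7.88, 13.5 and 23.9 CPM with glutamine. Their part in the adipose values of S100a8, S100a9 and Fgr was not tested. Without HFD library 1+3 S100a8 stood at -0.16, S100a9 at -0.70 and Fgr at -2.22, Lcn2 at 0.60 and Mpo at -0.60, Camp changed sign, to -0.02, and no member passed (edgeR).

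The difference of the glutamine effect between the tissues was tested in the fit of 18 libraries. Fgr was the 1 member called, at 6.88 ± 2.12 (adipose effect minus bone marrow effect, adjusted p = 0.0442, edgeR), where 11.9% of 15203 genes were called. This value comes from the 3 HFD bone marrow libraries with 1395 to 11920 counts of Fgr beside 5 glutamine libraries with 1 to 9. The call was lost without any 1 of the adipose libraries (adjusted p between 0.0663 and 0.0810) or of the HFD bone marrow libraries (between 0.0530 and 0.0714). It was also lost with relative log expression factors (6.97, adjusted p = 0.0567), upper-quartile factors (5.79, adjusted p = 0.112) and limma-voom (4.31, adjusted p = 1.00). For the other 9 members the differences lay between -0.90 for Lcn2 and 3.38 for Elane (adjusted p between 0.284 and 1.00, edgeR).

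Other genes of the granules and of the neutrophil were read from lists, leaving the members out. Of 13 further specific and gelatinase granule genes tested, 6 were called lower and 2 higher in adipose. Cybb, the catalytic subunit of the phagocyte oxidase, stood at -5.29 ± 1.22 (adjusted p = 0.00131) and Hp, haptoglobin, at -4.78 ± 0.713 (adjusted p = 1.28e-05, edgeR). Anxa3, an annexin, stood at 1.96 ± 0.888 (adjusted p = 0.0692). The median of this list was -3.42, that of all genes 1.43. Of 5 further azurophil genes tested, 3 were called lower and none higher, Lyz2 at -3.24 ± 0.627, the elastase inhibitor gene Serpinb1a at -3.58 ± 1.25 and the granule membrane gene Cd63 at -1.85 ± 0.401 (adjusted p at most 0.0214, edgeR). In CPM of the library total Cd63 averaged 1192 in HFD and 709 in glutamine bone marrow. In adipose it averaged 956 and 974, so by that measure it was not lower in the glutamine arm. With relative log expression factors 3 azurophil genes and 10 of the specific and gelatinase list were called lower, with Anxa3 at -1.58 (adjusted p = 0.190, edgeR). With limma-voom 2 azurophil genes were called lower and 1 higher, and 4 and 2 of the specific and gelatinase list. The list medians were then -0.12 and -0.23, beside 2.66 for all genes. Serpinb1a stood at -0.12 (adjusted p = 0.951) and Anxa3 at 3.54 (adjusted p = 0.00179, limma-voom).

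The mature neutrophil list had 7 genes called lower and 2 higher in adipose among 14 tested. Wfdc21 stood at -9.02 ± 1.82 and Hdc, histidine decarboxylase, which makes histamine, at -6.71 ± 1.46, with Mxd1, a MAX-binding repressor, at -3.74 ± 1.15 (adjusted p at most 0.0104, edgeR). With limma-voom 2 genes of this list were called lower, and Hdc stood at -3.34 (adjusted p = 0.0518). Mxd1 stood at -1.58 (adjusted p = 0.338) and Wfdc21 at -5.06 (adjusted p = 0.0124, limma-voom). Of 6 other S100 and alarmin genes tested, 1 was called higher in adipose and none lower. S100a10, the annexin A2 partner, stood at 3.87 ± 0.745 (adjusted p = 0.000221), and S100a6 at 1.09 ± 0.618 and S100a11 at 1.15 ± 0.70 did not pass (edgeR). These alarmin counts moved with the scaling. Under relative log expression factors none was called higher and 4 lower, S100a10 stood at 0.46 (adjusted p = 0.662) and S100a6 at -2.85 (adjusted p = 0.00772), and with upper-quartile factors S100a10 stood at 1.66 (adjusted p = 0.164, edgeR).

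Of 16 other Src family kinases and myeloid signalling genes, 4 were called higher and 2 lower in adipose. The phosphatase gene Ptpn6 stood at -5.11 ± 1.47 (adjusted p = 0.00688), while the kinase genes Fyn at 1.00 ± 0.890 and Lyn at -1.37 ± 1.24 did not pass (edgeR). Of 13 granulopoiesis regulators, 4 were called lower and 2 higher. Cxcl12, the chemokine that holds neutrophils in marrow, stood at -5.70 ± 0.405 (adjusted p = 5.38e-09), Runx1, a blood transcription factor, at -4.41 ± 1.12 (adjusted p = 0.00284) and Cebpd at 0.51 ± 1.10 (adjusted p = 0.708, edgeR). These 2 lists also moved with the scaling. Under relative log expression factors 3 kinase and signalling genes were called higher and 11 lower, and 1 and 8 of the regulators (edgeR). Fyn then stood at -2.54 (adjusted p = 0.0443) and Cebpd at -3.30 (adjusted p = 0.0312), and with limma-voom Lyn turned to 2.65 (adjusted p = 0.0573). Ptpn6 (-1.15, adjusted p = 0.546) and Runx1 (-1.71, adjusted p = 0.263) lost their calls with limma-voom. Cxcl12 kept its call there (-5.64, adjusted p = 2.86e-09).

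Receptors and binders of the members' products had 5 of 10 genes called higher and 2 lower in adipose. Cd36, a fatty acid receptor that binds calprotectin complexes, stood at 4.51 ± 0.850 (adjusted p = 0.000176), Bsg, a receptor of S100a9, at -2.59 ± 0.828 (adjusted p = 0.0135) and Lrp1 at -0.50 ± 0.657 (edgeR). By library-total CPM Bsg averaged 177 in adipose against 164 in bone marrow with HFD, and 198 against 373 with glutamine. It was called in the glutamine arm (adjusted p = 0.0442) but not in the HFD arm (adjusted p = 0.126, edgeR). Nor was it called with limma-voom (-1.27, adjusted p = 0.182). Of 8 protease and cysteine protease inhibitors, 3 were called lower and 1 higher, with Cst3, cystatin C, at -1.51 ± 0.594 (adjusted p = 0.0389, edgeR). In CPM of the library total, however, Cst3 averaged higher in adipose in both arms. It was at 593 against 437 CPM with HFD and 499 against 430 CPM with glutamine. With limma-voom it was not called (-1.04, adjusted p = 0.131). Serping1, the C1 inhibitor, stood at 0.29 ± 0.539 and Cstb at -0.85 ± 1.03, and neither passed. With relative log expression factors 3 receptor and binder genes were called higher and 5 lower, with Cd36 at 0.71 (adjusted p = 0.516), and 7 of the inhibitors lower, Serping1 at -3.46 (adjusted p = 0.000975) and Cstb at -4.73 (adjusted p = 0.00413, edgeR). With glutamine, no gene of these 8 lists was called in either tissue (edgeR). With TMM factors the lowest list median in bone marrow was -3.99, over the 5 azurophil genes tested, all negative, and the highest 1.35, over 6 receptors, all positive. In adipose, list medians ran from -0.84 for mature neutrophil genes to 0.04 for receptors.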

How the data were processed

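The kit, fed with 30 ng of RNA, primes at transcript 3′ ends, and only read 1 was used, per the labels' protocols. The authors deposited whole-number read counts per gene in 1 matrix per tissue. FastQC 0.12.1, STAR 2.7.10b, HTSeq 0.11.3 and GRCm38 are named per the submitters' processing notes. For annotation, strand setting and treatment of duplicates the source is silent (not given in the sources used here), so overlapping and antisense genes cannot be told apart, and counting noise is not told apart from copied molecules.

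From these counts, CPM was computed on the library total. Glutamine was tested within each tissue's 9 libraries, and tissue and its difference of effects in 1 fit of 18 libraries with 4 groups. Each fit used edgeR 4.0.16 in R 4.3.3 (filterByExpr, TMM, two-sided quasi-likelihood F test, Benjamini-Hochberg over all genes tested, calls at an adjusted p under 0.05). All 10 members passed the count filter in these 3 fits. In bone marrow Fgr passed through HFD libraries 1+3, 5+11 and 14+17, where it was high, and a trace in glutamine library 10+12. It missed the filter without any 1 of these. The SE is the absolute log2 fold change divided by the square root of F. Fits were tested on simulated data with known changes. The simulated counts had 1 setting of scatter for all genes and no traces. They therefore do not show how the fits handle the scatter of the bone marrow libraries. Alternatives were other scalings and count filters, DESeq2 1.42.0, limma 3.58.1 (voom with quality weights), a joint fit, a replicate block and leaving out each library. After the data were seen, 3 more were added: traces set to 0, fits without doubted libraries, and single arms.

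The members, the gene lists and these tests were chosen with earlier results of these data known. Named were all members, up to 3 other genes per list with the highest mean CPM over 18 libraries, and the 5 genes most like S100a9 in each tissue (average log2 CPM 4 or more). Lists are described by counts and medians, with no list test.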

Additional observations from a re-analysis of the deposited data

Results flagged for a closer look

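Of 40 groups of levels examined, 1 per gene, tissue and arm, 10 had a library whose gap to its nearest neighbour exceeded Dixon's 95% critical value. Chance alone gives about 1 in 20 for normally distributed values. CPM was skewed, with S100a8 at 5241 ± 8169 CPM (SD) in HFD bone marrow, so that rate need not hold here. Each flagged library was the highest of its group. In HFD bone marrow library 23+28 lay far above the others for S100a8, at 17468 CPM (next 1677), for S100a9, at 17730 CPM (next 1570), and for Mpo, at 3368 CPM (next 482). In glutamine bone marrow Camp was at 3219 CPM in library 25+27 (next 622) and Lcn2 at 1943 CPM in the unnumbered library (next 567).

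In adipose the gap stood at HFD library 23+28 for Mpo, at 10.5 CPM (next 1.53), and at glutamine library 4+6 for Mpo, at 8.94 CPM (next 2.58). Glutamine library 25+27 stood apart for Camp, at 3.90 CPM (next 1.79), Ltf, at 0.953 CPM (next 0.546), and Elane, at 0.635 CPM (next 0.293), all 3 of them traces. Camp was also highest in library 25+27 of the same arm of bone marrow, as was Ltf, at 1213 CPM. Elane was not, at 42.0 CPM in that library and 128 CPM in library 4+6, the highest of that arm.

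The glutamine effect on Fgr differed between the tissues by 6.88 on the log2 scale (adjusted p = 0.0442, edgeR), a call that was lost without any 1 of the adipose or HFD bone marrow libraries.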

How the results depend on the processing

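All 9 members other than Fgr kept direction and call for the tissue difference under each of the 29 alternatives per gene. Genes called there fell from 7858 to 4463 with limma-voom. For Fgr it was 2.22 with traces at 0 (adjusted p = 0.146), 0.60 in the glutamine arm and -2.20 with the replicate block (adjusted p = 0.216).

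In bone marrow, genes called with glutamine numbered 8, or 0 with relative log expression factors, upper-quartile factors, a stricter count filter or traces at 0, 1 with limma-voom, 202 with no filter, 722 with DESeq2, 3926 in the joint fit and 0 to 19 with 1 library left out (0 without any 1 of glutamine 4+6, 10+12, 18+20 or 25+27, 2 without HFD 23+28 and 14 to 19 without any of the others). Members called numbered 0, and 2 of 10 (Elane and Fgr) in DESeq2 (722 of 6041 genes) and in the joint fit (3926 of 15203 genes). Fgr missed the count filter, and was not tested, with the stricter filter, with traces at 0, and without HFD 1+3, 5+11 or 14+17 or glutamine 10+12, 18+20 or 25+27. With TMM-scaled CPM 1 member (Fgr) had separate arms. Ltf (-0.39) was 0.20 with no filter, 0.16 with the stricter filter, 2.17 with limma-voom, 0.17 in the joint fit and 1.43 with traces at 0. S100a8 was 0.70, S100a9 0.31 and Prtn3 0.79 with limma-voom, and S100a8 0.27 with traces at 0. Without both thinnest libraries (HFD 23+28 and unnumbered) Ltf was 2.70, S100a8 1.35, S100a9 0.85, Prtn3 0.17, Mpo 0.32 and Lcn2 -0.15. With each library left out in turn ranges were -1.62 to 2.37 for Ltf, -2.12 to 2.05 for S100a8, -2.16 to 1.19 for S100a9, -2.77 to 1.66 for Prtn3, -2.69 to 1.50 for Mpo, -1.38 to 1.83 for Lcn2 and -2.79 to 0.84 for Ngp.

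In adipose DESeq2 called 31 genes and edgeR 0. Ngp, Camp, Mpo, Ltf, Elane and Prtn3 were not tested there with traces at 0, nor Ltf, Elane and Prtn3 with the stricter filter. Lcn2 turned to -0.15 and Mpo to 0.0838 with limma-voom, Ngp to -0.0207 and Camp to -0.21 in the joint fit, and Camp to -0.0176 without HFD 1+3. Leave-one-out ranges were -0.16 to 0.60 for Lcn2, -1.31 to 1.13 for Mpo, -0.0465 to 0.35 for Ngp, -0.29 to 0.12 for Camp and -0.68 to 0.0102 for Elane.

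For the interaction of glutamine and tissue 1811 genes and 1 member (Fgr) were called. Both edgeR alternatives of scaling (relative log expression, upper quartile) called 0 and 0, with limma-voom 3 and 0, with traces at 0 6 and 0, with DESeq2 1061 genes, and with 1 library left out 0 (without any 1 adipose library or bone marrow HFD 23+28), 399 to 466 (without another HFD bone marrow library) to 2681 genes and 0 to 1 member. Fgr was 6.97, 5.79, 4.31 and 12.52 in the first 4 of these settings (adjusted p between 0.0506 and 1.00). Under relative log expression factors, upper-quartile factors and DESeq2 Ltf was 0.27, 1.45 and 0.27, S100a8 0.31, 0.85 and 0.31, and S100a9 0.19, 0.99 and 0.19. Ltf was 0.24 with no filter, and Mpo -0.34 with traces at 0 and -0.90 without both thinnest libraries. Leave-one-out ranges were -0.84 to 2.40 for Ngp, -2.08 to 1.27 for Ltf, -2.07 to 1.08 for Lcn2, -2.90 to 0.78 for S100a8, -2.63 to 0.43 for S100a9, -2.11 to 1.97 for Mpo and -0.47 to 3.41 for Prtn3.

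The same number pairs are used in both tissues, and the check made showed no pairing. Over 8 pairs the correlation of deviations ran from -0.008 to 0.026 and 0 exceeded 0.1. But 42.5% of bone marrow values of abundant genes lay between 0.01% and 0.06% of the other libraries, so this check cannot exclude pairing. A fit with the replicate block called 0 genes and 0 members for the difference of effects (Fgr 6.12, adjusted p = 1.00, and Prtn3 -0.0864, edgeR). Whether these lost calls reflect weaker effects was not tested. The causes of the changes above were not tested. Counts of 1 to 9 limit what can be said of Fgr in glutamine bone marrow, and counts of copied molecules are not independent, so depth gives no tighter bound than the spread of libraries.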
